A study of Mus musculus with 8 samples.

Results

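Aerocytes and general capillary cells are the capillary endothelial cell types of the mouse lung alveolus, and 10 genes that mark them were followed in lung tissue of mice given LPS, with or without tangeretin beforehand. Car4, Ednrb, Fibin, Tbx2 and Apln mark aerocytes, and Aplnr, Gpihbp1, Kit, Plvap and Emcn mark general capillary cells. These 10 genes were picked by symbol out of 24584 genes in the tables, and all 10 were found and passed the filter on low counts. All mice were male ICR mice of 6 to 8 weeks, an outbred stock that the labels call wild type, and all received 5 mg/kg LPS by intraperitoneal injection. The LPS group gave 4 libraries from mice given LPS alone. The LPS + Tan group gave 4 libraries from mice that also received 50 mg/kg tangeretin, a citrus flavone, by intraperitoneal injection 30 min before LPS. Lungs were taken 12 h after LPS. The comparison asked how tangeretin changed the lung transcriptome during LPS-induced acute lung injury, and no group without LPS was analysed here, so what LPS itself did to these genes cannot be read from the data.

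Aerocytes are large, thin capillary cells that lie against alveolar type 1 cells and carry out gas exchange, whereas general capillary cells regulate vasomotor tone and act as progenitors that renew both types after injury. The pair also holds a signalling axis, since aerocytes express apelin, encoded by Apln, and general capillary cells express its receptor, encoded by Aplnr. Endotoxin injures the lung endothelium, opens its barrier and alters the expression of many endothelial genes.

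Sequencing depth hardly varied, with 38895654 to 39931970 reads counted on genes per library. The libraries correlated at r = 0.973 to 0.988 within groups and 0.973 to 0.984 between groups in log2 CPM (counts scaled to a common library size with edgeR's TMM factors) over 15706 tested genes. LPS + Tan replicate 2 had the lowest median correlation with its own group, 0.975. Lung markers were present, as all 6 genes listed for alveolar type 2 cells passed the filter, with a summed level of 7763 to 12954 CPM per library, and so were all 12 endothelial genes, at 3996 to 4851 CPM. The 10 capillary markers held 0.132% of all counts. In whole lung, fewer cells of a type and less RNA per cell cannot be told apart.

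Promoter windows, from 250 bases before to 50 bases after an annotated start, were available from RefSeq for 6 of the 10 genes in the build GRCm38.p6. The 3 windows below are shown because Ednrb and Emcn were the markers with the highest correlation across libraries, while Car4 correlated with Ednrb at 0.12 and with Emcn at 0.039. Capitals mark 4 short motifs, searched on both strands: the core GGAAG bound by ETS factors, ACAAT bound by SOX factors, ACGTG found in sites of hypoxia-inducible factors, and TATAAA. Searched too were AGATAA, bound by GATA factors, and CACGTG, an E-box that contains ACGTG, which occurred in 0 of the 6 genes, against 11.2% and 7.15% of all windows. A match describes the letters alone.
Car4, chr11:84957504-84957803, plus strand: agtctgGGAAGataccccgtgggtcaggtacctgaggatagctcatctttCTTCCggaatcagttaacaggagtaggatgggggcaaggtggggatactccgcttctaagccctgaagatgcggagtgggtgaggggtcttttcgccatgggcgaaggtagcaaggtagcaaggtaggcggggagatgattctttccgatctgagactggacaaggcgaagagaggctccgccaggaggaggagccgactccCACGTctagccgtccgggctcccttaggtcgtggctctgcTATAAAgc
Ednrb, chr14:103843652-103843951, minus strand: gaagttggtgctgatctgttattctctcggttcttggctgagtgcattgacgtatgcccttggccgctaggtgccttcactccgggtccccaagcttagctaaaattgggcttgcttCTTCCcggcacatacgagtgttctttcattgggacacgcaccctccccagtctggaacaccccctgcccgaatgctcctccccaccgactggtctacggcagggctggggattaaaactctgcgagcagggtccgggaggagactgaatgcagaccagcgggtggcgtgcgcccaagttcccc
Emcn, chr3:137340828-137341127, plus strand: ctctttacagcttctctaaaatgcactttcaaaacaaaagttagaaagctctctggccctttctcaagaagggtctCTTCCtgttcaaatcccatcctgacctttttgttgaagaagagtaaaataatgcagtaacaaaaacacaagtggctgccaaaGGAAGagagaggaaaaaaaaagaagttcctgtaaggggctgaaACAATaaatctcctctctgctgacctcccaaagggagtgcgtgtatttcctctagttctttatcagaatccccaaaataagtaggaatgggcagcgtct
The ETS core was present in all 6 genes, and also in 71.4% of the 32851 windows in the table. ACAAT occurred in Emcn alone of the 6 genes and in 31.0% of all windows. TATAAA and ACGTG occurred in Car4 alone, against 13.6% and 19.6% of all windows. The Emcn window was the poorest in GC, at 41.0%, where Car4 had 57.3%, Ednrb 58.7% and the median of all windows was 52.7%.

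Levels of different genes were compared per length, as FPKM. Plvap, which encodes the diaphragm protein of endothelial fenestrae and caveolae, was the most abundant marker, at 263 ± 75.1 FPKM in the LPS group and 278 ± 18.7 FPKM with tangeretin (SD, n = 4 each). Its mean over the 8 libraries was 3.65-fold that of Fibin, the next gene, and it was above Fibin in all 8. Fibin and Car4, at means of 74.2 and 70.6 FPKM over the 8 libraries, could not be ordered, since Fibin was the higher in 4 of 8 libraries. Gpihbp1, Kit, Tbx2 and Emcn followed at 54.3, 41.8, 32.5 and 28.7 FPKM. The ranges of neighbours overlapped in this stretch, but Kit was above Tbx2 in all 8 libraries, and each of the other neighbours from Car4 to Emcn kept its order in 7 of 8. Apln, at 9.46 FPKM, lay below Emcn without overlap. Ednrb, at 3.63 FPKM, lay below Apln without overlap and was above Aplnr, at 2.01 FPKM, in all 8 libraries. The endothelin and apelin receptors were thus the least abundant of the 10 markers.

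**Figure D1:**
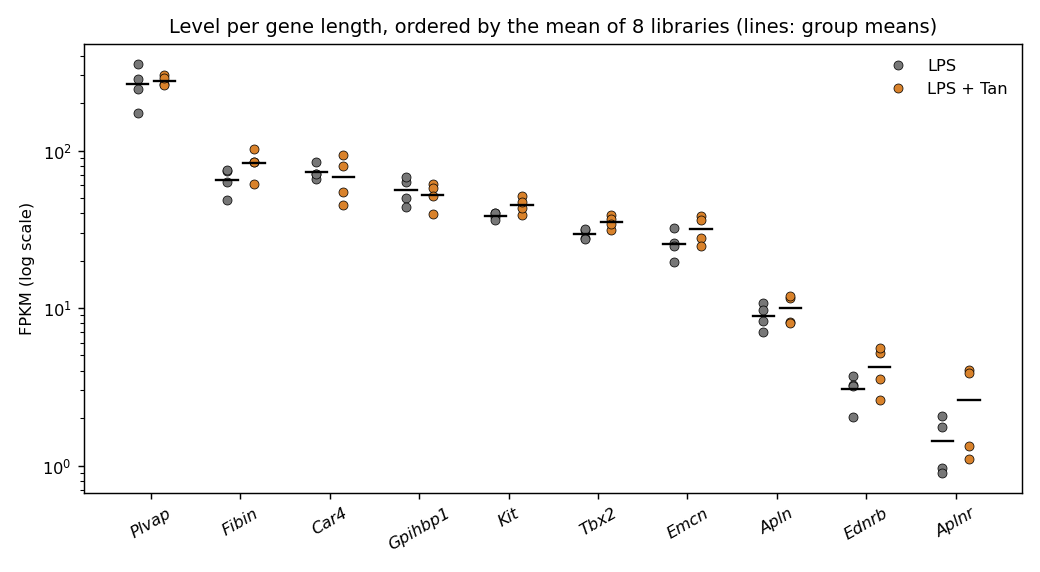
FPKM of the 10 markers (vertical axis, log scale) in each of 4 LPS and 4 LPS + Tan libraries, ordered along the horizontal axis by the mean of 8 libraries, with lines at the group means. Plvap stands above the rest, 6 genes lie between 19.5 and 102 FPKM, and Apln, Ednrb and Aplnr lie below these 6 genes.

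In the RefSeq annotation of GRCm38.p6 the genes lie at chr11:85832615-85841948 (Tbx2), chr11:84957754-84966054 (Car4), chr14:103814615-103844508 (Ednrb), chr2:110360925-110362993 (Fibin), chrX:48025146-48034853 (Apln) for the aerocyte markers and at chr2:85136360-85139923 (Aplnr), chr15:75596630-75598213 (Gpihbp1), chr5:75574987-75656722 (Kit), chr8:71497753-71511806 (Plvap), chr3:137341062-137431069 (Emcn) for the general capillary markers.

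Of the aerocyte markers, Tbx2 alone was past an unadjusted p of 0.05 by edgeR, where 5.12% of all tested genes were. Which cells of the whole lung supplied the Tbx2 counts was not tested. Tbx2, a T-box transcription factor, was at 113, 97.9, 102 and 114 CPM in LPS replicates 1 to 4 and at 135, 110.2, 125 and 126 CPM in LPS + Tan replicates 1 to 4. All but LPS + Tan replicate 2 lay above every LPS library, so that the groups overlapped by that 1 library. The mean was 107 ± 7.99 CPM in the LPS group and 124 ± 10.4 CPM with tangeretin (SD, n = 4 each), which makes the log2 fold change 0.22 (SE 0.090). The unadjusted p was 0.0364 by edgeR's quasi-likelihood test, and the adjusted p over all tested genes was 0.924. The unadjusted p of Tbx2 rose to 0.114 by edgeR without LPS replicate 2, to 0.0866 without LPS replicate 3, to 0.107 without LPS + Tan replicate 1, to 0.0713 without LPS + Tan replicate 3 and to 0.0521 without LPS + Tan replicate 4. Its log2 fold change stayed between 0.17 and 0.27 with each library left out in turn.

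Car4 encodes carbonic anhydrase 4, a membrane-anchored enzyme that converts carbon dioxide and bicarbonate at the capillary surface and defines aerocytes. It was at 118, 107, 120.2 and 138 CPM in LPS replicates 1 to 4 and at 86.3, 151, 124 and 76.1 CPM in LPS + Tan replicates 1 to 4. The LPS + Tan libraries lay on both sides of the LPS group, with replicate 2 above it, replicates 1 and 4 below it and replicate 3 inside it. The means were 121 ± 12.8 and 109 ± 34.6 CPM (SD, n = 4 each), which makes the log2 fold change -0.15 (SE 0.20, edgeR adjusted p = 0.978). It ranged from -0.34 without LPS + Tan replicate 2 to -0.0064 without LPS + Tan replicate 4.

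Ednrb encodes the type B endothelin receptor, which clears endothelin and promotes release of nitric oxide in endothelium. It was at 21.3, 11.4, 19.3 and 18.5 CPM in LPS replicates 1 to 4 and at 28.4, 19.96, 30.3 and 15.4 CPM in LPS + Tan replicates 1 to 4. LPS + Tan replicates 1 and 3 were above every LPS library and replicates 2 and 4 were not. Its log2 fold change was 0.42 (SE 0.24, edgeR adjusted p = 0.927), with 0.25 when LPS replicate 2 was left out and 0.57 when LPS + Tan replicate 4 was. Fibin, a secreted protein of little known function, was at 157, 129, 104 and 158 CPM in LPS replicates 1 to 4 and at 169.8, 126, 166 and 218 CPM in LPS + Tan replicates 1 to 4. Here LPS + Tan replicates 1, 3 and 4 exceeded all LPS libraries and replicate 2 lay among them, and the log2 fold change was 0.31 (SE 0.18, edgeR adjusted p = 0.926). Omitting LPS + Tan replicate 4 gave 0.17 for Fibin, and omitting LPS + Tan replicate 2 gave 0.43. Apln, the apelin ligand, was at 34.5, 22.1, 31.7 and 26.2 CPM in LPS replicates 1 to 4 and at 35.6, 37.6, 24.5 and 26.2 CPM in LPS + Tan replicates 1 to 4. The groups overlapped over nearly the whole range, and the log2 fold change of 0.11 was smaller than its SE of 0.18 (edgeR adjusted p = 0.979). It ranged from 0.0038 without LPS replicate 2 to 0.22 without LPS replicate 1.

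Of the general capillary markers, 0 of 5 were past an unadjusted p of 0.05 by edgeR, where 5.12% of all tested genes were. The largest log2 fold change of all 10 genes was that of Aplnr. Aplnr, the G protein-coupled apelin receptor, was at 3.50, 3.19, 7.63 and 6.35 CPM in LPS replicates 1 to 4 and at 14.0, 3.92, 13.1 and 4.91 CPM in LPS + Tan replicates 1 to 4. LPS + Tan replicates 1 and 3 were above every LPS library, while replicates 2 and 4 were below LPS replicates 3 and 4. The means were 5.17 ± 2.17 and 8.99 ± 5.31 CPM (SD, n = 4 each), which makes the log2 fold change 0.80 (SE 0.44, edgeR adjusted p = 0.924). For Aplnr this value was 0.50 without LPS + Tan replicate 1 and 1.05 without LPS replicate 3, and 0.48 by limma on log2(FPKM + 1). The ratio of Apln to Aplnr in FPKM, ligand over receptor, ran from 4.67 to 11.2 in the LPS group and from 2.12 to 10.9 in the LPS + Tan group. It was lowest in LPS + Tan replicates 1 and 3, at 2.87 and 2.12.

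Kit, the receptor tyrosine kinase for stem cell factor, was at 199, 208, 216 and 190.1 CPM in LPS replicates 1 to 4 and at 259, 199.8, 211 and 250.3 CPM in LPS + Tan replicates 1 to 4. LPS + Tan replicates 1 and 4 were above the LPS group and replicates 2 and 3 were within it, and the log2 fold change was 0.18 (SE 0.10, edgeR adjusted p = 0.927). For Kit it lay between 0.11, without LPS + Tan replicate 1, and 0.24, without LPS + Tan replicate 2. Kit also marks mast cells, and of the 8 mast cell genes in the table all but Hdc, at 190 CPM, had a mean below 1 CPM in the LPS group, among them Cpa3 at 0.814 CPM and Cma1 at 0.423 CPM. The part of mast cells in the Kit level was not tested. Emcn, a mucin-like surface glycoprotein of capillary and venous endothelium, was at 39.003, 28.6, 37.9 and 48.0 CPM in LPS replicates 1 to 4 and at 55.1, 40.8, 50.6 and 37.9 CPM in LPS + Tan replicates 1 to 4. As for Ednrb and Aplnr, LPS + Tan replicates 1 and 3 were above all LPS libraries and the other two were not. Emcn had a log2 fold change of 0.26 (SE 0.17, edgeR adjusted p = 0.928), which was 0.14 with LPS replicate 2 omitted and 0.39 with LPS replicate 4 omitted.

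Gpihbp1 anchors lipoprotein lipase to the capillary wall. It was at 52.6, 41.2, 58.0 and 36.5 CPM in LPS replicates 1 to 4 and at 31.8, 50.3, 45.4 and 43.5 CPM in LPS + Tan replicates 1 to 4. The groups overlapped widely, and the log2 fold change of -0.14 was smaller than its SE of 0.17 (edgeR adjusted p = 0.972). It ranged from -0.24 without LPS replicate 4 to -0.023 without LPS replicate 3. Plvap was at 528, 363, 629 and 753 CPM in LPS replicates 1 to 4 and at 545, 633, 524 and 627 CPM in LPS + Tan replicates 1 to 4. All LPS + Tan libraries lay inside the LPS range, and the log2 fold change was 0.035 (SE 0.19, edgeR adjusted p = 0.997). Leaving out LPS replicate 2 turned its direction (-0.13), and so did leaving out LPS + Tan replicate 2 (-0.0070) or replicate 4 (-0.0025).

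**Figure D2:**
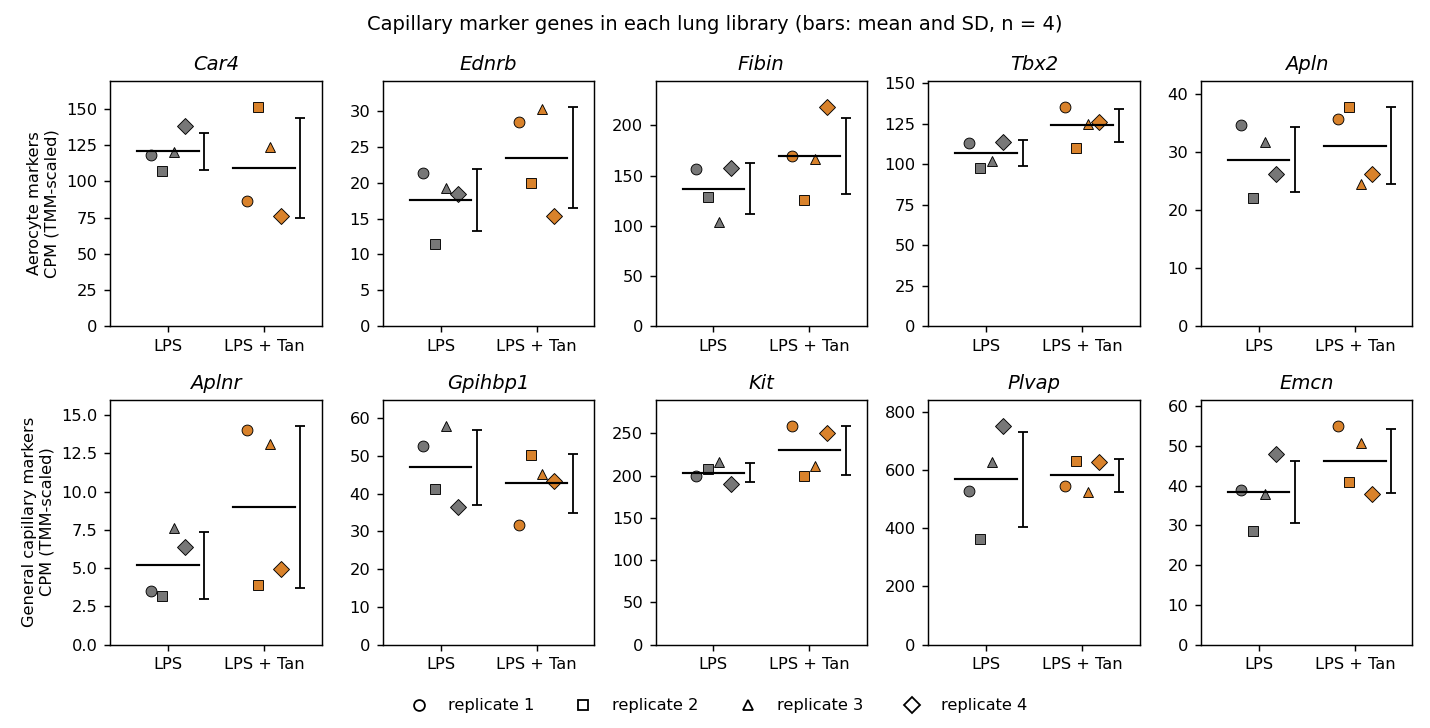
CPM of each marker (vertical axes, from 0) in 4 LPS and 4 LPS + Tan libraries, with symbols for the replicates and bars for the mean and SD. The groups overlap for all 10 genes, and in Ednrb, Aplnr and Emcn LPS + Tan replicates 1 and 3 lie above the LPS group.

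Across the 10 markers, 1 gene, Tbx2, was past an unadjusted p of 0.05 by edgeR, where 5.12% of all tested genes were, 2.87% as higher and 2.25% as lower. When the study's second threshold was added, a log2 fold change beyond 1 in either direction, 0 of the 10 passed, against 0.649% of all tested genes. After adjustment over all tested genes, 0 of the 10 and 0% of all tested genes were below 0.05 by edgeR, and the lowest adjusted p of a marker was 0.924. DESeq2, limma-voom and edgeR's likelihood ratio test also gave 0 markers at an adjusted p below 0.05, with 1, 1 and 0 of them at an unadjusted p below 0.05, where 4.41%, 5.16% and 5.23% of all genes in these fits were. Among all genes, edgeR's quasi-likelihood test and limma-voom gave 0 genes at an adjusted p below 0.05, DESeq2 35 and the likelihood ratio test 23, and 804 genes were below 0.05 unadjusted by edgeR. The groups overlapped for all 10 markers, whereas they did not for 2.73% of tested genes. The log2 fold change was above 0 for 8 of 10 markers, with a median of 0.20, against 51.8% and a median of 0.0070 for all tested genes. Its size was below 1 standard error for 4 genes, Car4, Apln, Gpihbp1 and Plvap, and over 2 standard errors for Tbx2. The medians were 0.22 for the 5 aerocyte markers and 0.18 for the 5 general capillary markers.

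The count of markers past an unadjusted p of 0.05 depended on single libraries. Without LPS + Tan replicate 2 it was 4, namely Fibin, Tbx2, Aplnr and Kit, but 10.2% of all tested genes were then past the same p. Without LPS replicate 4 the markers were Tbx2 and Emcn, with 4.91% of all tested genes, and without LPS + Tan replicate 4 Ednrb alone, with 9.34%. It was 0 without LPS replicates 2 or 3, with 4.13% and 3.69% of all tested genes, and without LPS + Tan replicates 1 or 3, with 3.02% and 3.72%. The share of all genes past this p thus moved with the library left out as well.

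**Figure D3:**
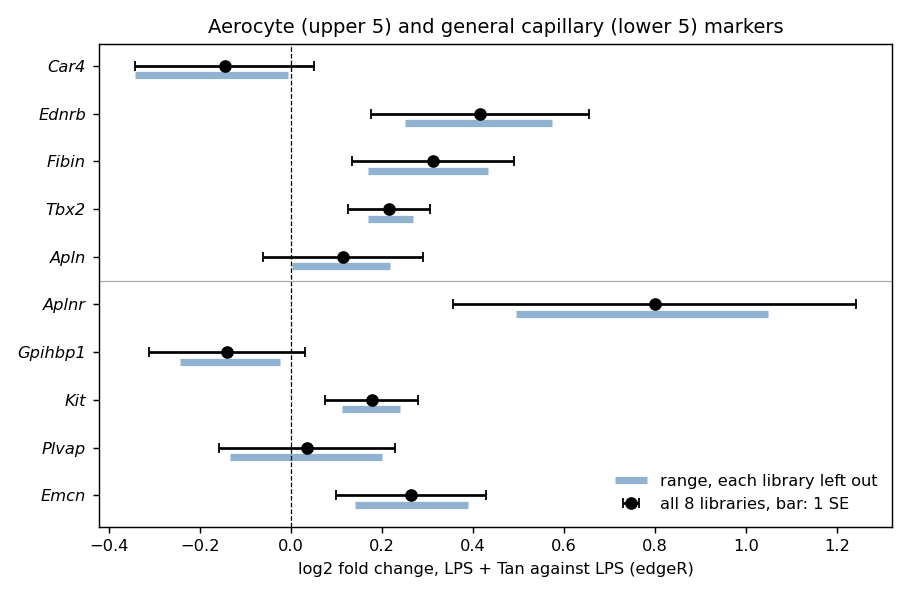
Log2 fold change of each marker in the LPS + Tan group against the LPS group by edgeR (points, bars of 1 standard error), with the range when each of the 8 libraries is left out in turn (blue). The range lies below 0 for Car4 and Gpihbp1, spans 0 for Plvap, from -0.13 to 0.20, and lies above 0 for the other genes.

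The spread between libraries varied from gene to gene. Kit had the lowest coefficient of variation in the LPS group, 5.58%, against 12.6% in the LPS + Tan group. Tbx2 had the lowest in the LPS + Tan group, 8.36%, and 7.48% in the LPS group. Aplnr was the most variable, at 42.0% and 59.1%. Car4 varied by 10.6% in the LPS group and 31.7% in the LPS + Tan group, whereas Plvap went the other way, with 29.0% and 9.62%. Among 11255 tested genes with a mean of at least 5 CPM, the median SD in log2 CPM was 0.13 in the LPS group and 0.18 in the LPS + Tan group. Plvap, at 0.45, and Aplnr, at 0.62, exceeded it most in the LPS group, and Aplnr, at 0.95, Ednrb, at 0.46, and Car4, at 0.46, in the LPS + Tan group. In the LPS group replicate 2 was the lowest library for 7 of the 10 markers. Whether the groups differ in spread was not tested.

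To set the markers beside the endothelial content of the tissue, each was expressed relative to an endothelial index, the mean log2 CPM of 12 genes shared by all endothelial cells, among them Pecam1, Cdh5 and Tie1. The index itself was 7.83 ± 0.0969 (SD, n = 4) in the LPS group and 7.91 ± 0.113 (SD, n = 4) in the LPS + Tan group, a difference of 0.081 (exact two-sided permutation test, p = 0.314). This difference was smaller than the SD of either group. Relative to the index, Tbx2 was -1.09 ± 0.0370 (SD, n = 4) in the LPS group and -0.96 ± 0.0916 (SD, n = 4) in the LPS + Tan group, in log2 units. This difference of 0.14 had a p of 0.0571 by the exact two-sided permutation test, whose smallest p with 4 and 4 libraries is 0.0286. The difference of Tbx2 depended on the reference, at 0.037 relative to Pecam1 alone and 0.36 relative to Cdh5 alone (exact permutation p = 0.629 and 0.114). Aplnr was higher by 0.59, Ednrb by 0.32, Fibin by 0.23 and Emcn by 0.19 relative to the index, with exact permutation p of 0.286, 0.286, 0.286 and 0.371. These differences depended on the reference too. Relative to Cdh5 alone they were 0.82, 0.55, 0.45 and 0.42, and relative to Pecam1 alone 0.50, 0.22, 0.13 and 0.093. Car4 was lower by 0.27 and Gpihbp1 by 0.22, with exact permutation p of 0.371 and 0.4. Relative to Cdh5 alone these were -0.047 and 0.012, so that Gpihbp1 turned, and relative to Pecam1 alone they were -0.37 and -0.31. The other differences were 0.090 for Kit, 0.030 for Apln and -0.00026 for Plvap, and 0 of the 10 unadjusted p were below 0.05. Kit, Apln and Plvap were at 0.32, 0.26 and 0.23 relative to Cdh5 alone and at -0.0079, -0.068 and -0.098 relative to Pecam1 alone. Per library, Car4 relative to the index was between -0.99 and -0.81 in all LPS libraries, but at -1.49, -0.53, -0.95 and -1.79 in LPS + Tan replicates 1 to 4.

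Across the 8 libraries, markers of 1 cell type correlated with each other over a wide range. Over the 45 pairs, the median Pearson correlation of log2 CPM was 0.17 within the aerocyte markers, 0.14 within the general capillary markers and 0.23 between them. The highest was that of Ednrb with Emcn, an aerocyte and a general capillary marker (r = 0.89, exact permutation p = 0.00516; rho = 0.81, p = 0.0218; n = 8). It was 0.71 without the 2 libraries farthest from the median of Ednrb and 0.85 within groups. Aplnr correlated with Emcn (r = 0.81, exact permutation p = 0.0133; rho = 0.74, p = 0.0458) and with Ednrb (r = 0.78, exact permutation p = 0.0204; rho = 0.60, p = 0.132), at 0.55 and 0.59 without the 2 farthest libraries. Fibin correlated with Tbx2 (r = 0.79, exact permutation p = 0.0183; rho = 0.90, p = 0.00456), at 0.83 without the 2 farthest libraries. The lowest value was that of Car4 with Kit (r = -0.89, exact permutation p = 0.00662; rho = -0.67, p = 0.0831), and it was -0.53 without the 2 farthest libraries, so that it rested in part on them. Car4 also ran against Fibin, another aerocyte marker, at r = -0.62 (exact permutation p = 0.0979; rho = -0.55, p = 0.171), and at 0.067 without the 2 farthest libraries. After adjustment over the 45 pairs the lowest exact permutation p was 0.149 for Pearson's r and 0.205 for Spearman's rho, so that no pair passed.

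**Figure D4:**
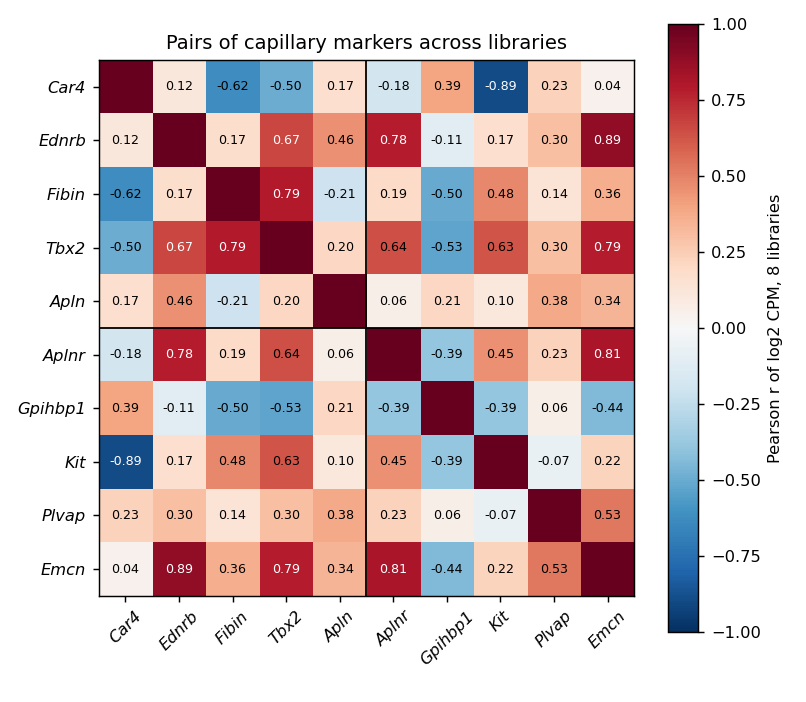
Pearson correlation of log2 CPM over 8 libraries for each pair of markers, with lines between the 5 aerocyte and the 5 general capillary markers. The highest value is 0.89 for Ednrb with Emcn and the lowest -0.89 for Car4 with Kit, and values of both signs occur in both blocks.

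The genes whose pattern over the 8 libraries was most like each marker were sought among tested genes with a mean of at least 5 CPM, as a description over libraries of similar depth. Car4 was most like Tbx5, a T-box factor of lung mesenchyme (r = 0.98), and Il1rl2, the receptor of interleukin-36 (0.97). Fibin was most like Lipe, hormone-sensitive lipase (0.98), and Inmt, an amine methyltransferase abundant in lung (0.98). Tbx2 was most like Adrb1, the beta-1 adrenergic receptor, and Mgst3, a microsomal glutathione transferase, at 0.996 and 0.994. Emcn was most like Cyth3, an ARF exchange factor, and Kif26a, an unconventional kinesin, at 0.97 and 0.96. Plvap was most like Lox, lysyl oxidase, which cross-links collagen and elastin (0.98), and Zdhhc12 (0.96). Ednrb was most like Tpcn1, an endolysosomal cation channel, and Lats2, a Hippo pathway kinase, at 0.97 and 0.96. The nearest genes of Aplnr were Zfp790 and Arhgap19, those of Kit Acy1 and Plekha3, those of Gpihbp1 Mrpl2 and Mapk13, and those of Apln Surf6 and Cryl1, at r of 0.92 to 0.97. For each marker 11254 genes were searched over 8 libraries, and the values carry no test.

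Other genes of the same cells were read beside them, against the 2.87% of all tested genes called higher and 2.25% called lower at an unadjusted p below 0.05. Of 8 further aerocyte genes, 1 rose at an unadjusted p below 0.05 and 0 fell, with a median log2 fold change of 0.11. The riser was Kdr, the main VEGF receptor, at 259 ± 37.4 CPM under LPS and 334 ± 65.3 CPM with tangeretin added (SD, n = 4 each), a log2 fold change of 0.37 (unadjusted p = 0.0364 and adjusted p = 0.924 by edgeR). Of 10 further general capillary genes, 2 rose, 1 fell and 7 did not pass, with a median of 0.29. Clec1a, a C-type lectin, rose by a log2 fold change of 0.95 and Sema3c, a semaphorin, by 0.39, while Itga1, an integrin subunit, fell by 0.24 on the log2 scale (unadjusted p = 0.0493, 0.0405 and 0.0351 by edgeR). The adjusted p was 0.924 for each. Clec1a was at 194 and 135 CPM in LPS + Tan replicates 1 and 3, while replicates 2 and 4, at 49.8 and 63.8 CPM, lay inside the LPS range of 33.4 to 81.4 CPM. Sema3c in LPS + Tan replicate 2, at 218 CPM, was below every LPS library. With each of the 8 libraries left out in turn, Kdr and Clec1a kept an unadjusted p below 0.05 in 3 of 8 fits by edgeR, Itga1 and Tek in 2 and Sema3c in 1. Of the 12 genes of the endothelial index, 1 rose, namely Tek, the angiopoietin receptor, with a log2 fold change of 0.51 (unadjusted p = 0.0433 by edgeR), and 0 fell. Pecam1 and Cdh5 had log2 fold changes of 0.19 and -0.15, neither past the test.

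The ligands and partners of the markers were then examined, as a list of 16 genes of which 13 passed the filter. Of these, 2 rose and 0 fell at an unadjusted p below 0.05, where 2.87% of all tested genes were called higher and 2.25% lower. The median log2 fold change was 0.21, and both risers were ligands of the endothelin receptors. Edn1, the vasoconstrictor endothelin-1, was at 79.4 ± 27.0 CPM under LPS and 130.5 ± 36.7 CPM with tangeretin added (SD, n = 4 each), which makes the log2 fold change 0.72 (SE 0.28, edgeR unadjusted p = 0.0298, adjusted p = 0.924). LPS replicate 3, at 39.9 CPM, stood apart from the other LPS libraries, at 86.8 to 100.4 CPM, and without it the log2 fold change of Edn1 was 0.50 (edgeR unadjusted p = 0.0392). The call of Edn1 held in 5 of 8 fits by edgeR with each library left out in turn. It was lost without LPS + Tan replicates 1, 2 or 4 (edgeR unadjusted p = 0.0518, 0.0864 and 0.0550). Edn3 was at 3.19 ± 1.07 and 5.46 ± 1.98 CPM (SD, n = 4 each), a log2 fold change of 0.77 (unadjusted p = 0.0458 and adjusted p = 0.924 by edgeR). Its call held in 3 of 8 such fits. Ednra, the type A receptor, and Ece1, which cleaves the endothelin precursor, had log2 fold changes of -0.077 and -0.0033. Kitl, the ligand of Kit, had 0.21, and Lpl, the lipase carried by Gpihbp1, 0.078. Cav1, Cavin1 and Cavin2, which build the caveolae that hold Plvap, had 0.38, 0.23 and 0.43, none past the test. Cd36, a fatty acid transporter, had 0.39, Angptl4, an inhibitor of lipoprotein lipase, -0.21, Lmf1, a lipase maturation factor, 0.048, and Vegfa 0.091, none past the test either. Apela, the other ligand of Aplnr, had 19 counts over the 8 libraries and Edn2 had 2, and neither passed the filter.

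Markers of neighbouring cells moved in part with the groups, again beside 2.87% of all tested genes called higher and 2.25% called lower. In the arterial list 5 of 9 genes rose, with a median log2 fold change of 0.46, among them Sox17 with 1.38, Hey1 with 1.23 and Efnb2 with 0.64. Gja5 alone of the arterial genes was below 0, with -0.25. Of 8 tip cell genes, 2 rose, Dll4 with 0.46 and Kcne3 with 0.96, and Dll4 is also in the arterial list. The tip cell median was 0.12, and 3 of the 8 genes were below 0, the lowest being Angpt2 with -0.52. Kcne3 was at low means of 0.33 CPM in the LPS group and 0.65 CPM in the LPS + Tan group. Its call held in 3 of 8 fits by edgeR with each library left out in turn. Of 8 venous genes that passed the filter, 2 rose, Ephb4 with 0.33 and Amigo2 with 0.79. The venous median was 0.066, and 2 of the 8 genes were below 0, Selp with -0.45 and Vwf with -0.063. Of 8 pericyte genes, 3 rose, Rgs5, Cox4i2 and Higd1b, with a median of 0.39, and Pdgfrb alone was below 0, with -0.082. The summed level of the pericyte genes was 269 to 304 CPM in the LPS group and 275 to 368 CPM in the LPS + Tan group. All of these rises were calls at an unadjusted p below 0.05 by edgeR with adjusted p of 0.497 or more. In the mast cell list, 4 of 9 genes passed the filter, and 1 fell, Ms4a2, which encodes the beta chain of the IgE receptor, from 0.682 to 0.319 CPM, while 0 rose. Over all lists, 23 genes that were not among the 10 markers were called at an unadjusted p below 0.05, and 7 of them, Dll4, Efnb2, Hey1, Sox17, Ephb4, Rgs5 and Ms4a2, were called by edgeR with each library left out in turn. The part of any of these cell types in the marker values was not tested.

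**Figure D5:**
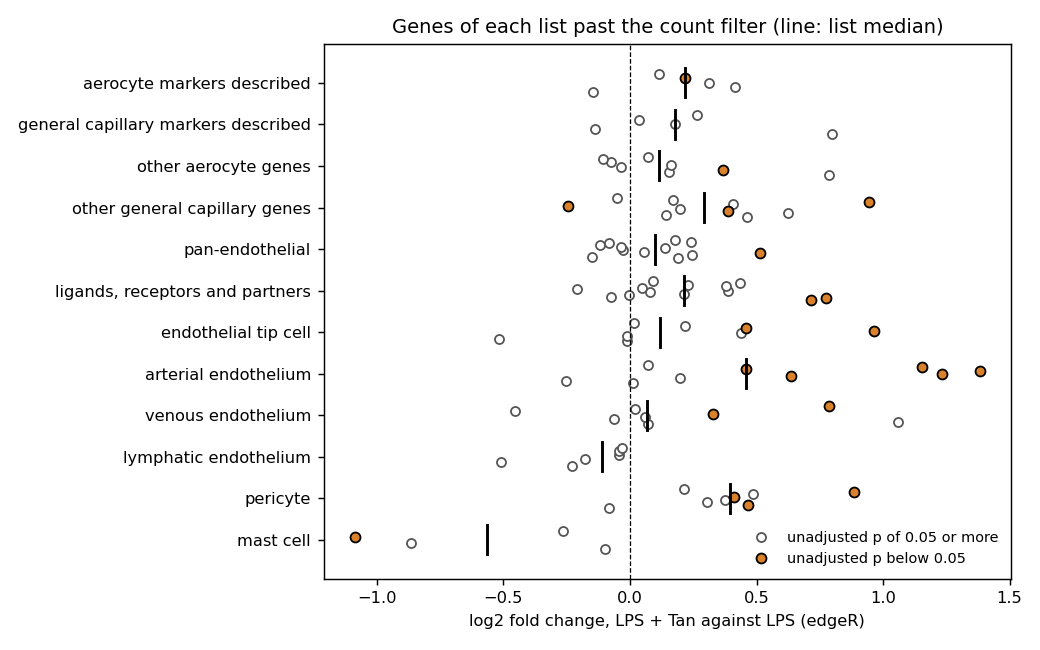
Log2 fold changes (horizontal axis, LPS + Tan against LPS by edgeR) of the genes past the count filter in each list, with filled points for an unadjusted p below 0.05 and a line at the list median. The medians of the aerocyte and general capillary markers, 0.22 and 0.18, lie between those of the pan-endothelial list, 0.097, and the arterial list, 0.46.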

How the data were processed

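The 8 lung RNA-seq libraries, 4 per group, were grouped by their labels, and 0 columns were left without a sample. The authors deposited raw read counts per gene and FPKM values for the same 24584 genes, and the submitters' processing notes name the builds GRCm38 and mm10. Aligner, counter and annotation were not given in the sources used here. Different RNA extraction and library kits are named by the labels and by the study's methods, and which applies is unknown. Counts were filtered with filterByExpr, which left 15706 genes, scaled by TMM and tested with the quasi-likelihood test of edgeR 4.0.16 in R 4.3.3, with no covariate, and p was adjusted by the Benjamini-Hochberg method over all tested genes. The standard error was the size of the log2 fold change divided by the square root of F. CPM used the TMM factors, and 0.5 counts were added before taking log2.

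FPKM, the authors' values, served for levels between genes and, with limma 3.58.1 on log2(FPKM + 1) and log2(FPKM + 0.1), as alternatives. The others were DESeq2 1.42.0, limma-voom, the likelihood ratio test, other scalings and filters, a block for the replicate number and leaving out each library. The scripts were tested on simulated data. Neither the labels nor the methods say outright that each library is a different mouse, so p-values measure only the spread between these samples, which may be technical. No pair within a group was a repeated library (median squared deviation 7.83 to 22.4 times that of counting noise). Pairs between the groups were not checked. The members, lists, motifs and promoters shown were chosen with earlier results of these data known. The rule for named genes took, beyond the markers, list genes at an unadjusted p below 0.05 or else up to 3 of the most abundant, Pecam1 and Cdh5, the partners that passed the filter, and the 2 genes most like each marker with a mean of at least 5 CPM. The text prints some of these, and Tbx4, Cpa3, Cma1 and Hdc were added after their values were seen. For 4 markers no promoter sequence was used here.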

Additional observations from a re-analysis of the deposited data

Results flagged for a closer look

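In 94 groups of 4 libraries, the markers, the endothelial index and the other named list genes were examined for a library far from the rest, by the distance to its nearest neighbour in log2 CPM, divided by the group's whole range. There were 4 such groups, in 3 different libraries, where chance, at about 1 in 20 groups, gives about 4.7 groups, and 0 of the 20 groups of the 10 markers held one. Edn1 was lowest in LPS replicate 3, at 39.9 CPM against 86.8 to 100.4 in the other LPS libraries, a share of 0.842. Cav1 and Cavin2 were both lowest in LPS + Tan replicate 2, with shares of 0.869 and 0.865, at 461 CPM against 706 to 753 and at 239 CPM against 417 to 455. Among the 10 markers this library was the lowest of the LPS + Tan group for 4 (Aplnr, Fibin, Tbx2 and Kit) and the highest for 4 (Car4, Apln, Gpihbp1 and Plvap). Ephb4 was highest in LPS + Tan replicate 1, at 195 CPM against 163 to 166, a share of 0.908. What set these libraries apart was not tested.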

How the results depend on the processing

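Over 19 alternatives of the fit, 175 of 190 values of the 10 markers kept their direction and their side of an unadjusted p of 0.05, and 0 of the 190 had an adjusted p below 0.05. The number of markers past an unadjusted p of 0.05, 1 in the report, was 0 by edgeR's likelihood ratio test, 2 (Tbx2 and Kit) by limma on log2(FPKM + 1), and 0 to 4 with each library left out in turn, where 5.23%, 6.16% and 3.02% to 10.2% of all tested genes passed. The log2 fold change of Plvap, 0.035, ran from -0.13 to 0.20 with a library left out. The replicate number as a block gave 1 marker, Tbx2, with a log2 fold change of 0.22, where 5.26% of all tested genes passed, and changed no call. Same-numbered libraries did not deviate together over the tested genes (correlations of 0.12, -0.031, -0.15 and 0.020). These correlations cannot show whether such libraries shared a day or a batch. Relative to Cdh5 alone in place of the endothelial index, Gpihbp1 turned to 0.012 and Plvap to 0.23, while Car4 moved from -0.27 to -0.047 and Tbx2 from 0.14 to 0.36. Relative to Pecam1 alone, Apln turned to -0.068 and Kit to -0.0079, while Tbx2 moved to 0.037. The other markers kept their direction under these references. With log2(FPKM + 1), Plvap turned to 0.0016, from -0.00026. No marker was past 0.05 relative to any of these references in the exact permutation test. The causes of these changes were not tested. Depth limits the markers little, since the lowest count was 126 reads for Aplnr.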

Other observations

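In the families of Tbx2 and Car4, the counts of called genes were read against the 2.87% of all tested genes called higher and 2.25% called lower at an unadjusted p below 0.05. Of 8 other T-box genes past the filter, 1 rose, Tbx3, a close relative of Tbx2, with a log2 fold change of 0.51 (unadjusted p = 0.0392 and adjusted p = 0.924 by edgeR). Tbx4, which is expressed in lung mesenchyme, had -0.043, and Tbx5 had -0.13. Of 10 other carbonic anhydrase genes past the filter, 1 rose, Car14 with 0.80, and 1 fell, Car13, by 0.39 on the log2 scale (unadjusted p = 0.0159 and 0.0257, adjusted p = 0.924 for both, by edgeR).

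Of 6 lymphatic endothelial genes, 0 were called by edgeR at an unadjusted p below 0.05, and the median log2 fold change was -0.11. Lyve1, a hyaluronan receptor, was the furthest, at -0.51. Its mean in the LPS group was 2330 CPM, while those of the other genes in the list ran from 4.83 CPM for Prox1 to 83.6 CPM for Flt4. Which lung cells supplied the Lyve1 counts was not tested. In the fibroblast list 1 of 8 genes fell, Col13a1, by 0.82 on the log2 scale. Of all tested genes, 2.25% were called lower at an unadjusted p below 0.05. The Col13a1 call held in 5 of 8 fits by edgeR with each library left out in turn, and its log2 fold change was -0.51 without LPS replicate 3. In the erythroid list 5 of 5 genes were below 0, where 51.8% of all tested genes were above 0. The erythroid median was -0.55, with 0 genes called by edgeR at an unadjusted p below 0.05. The lists of smooth muscle, alveolar type 1 and type 2, airway, neutrophil, macrophage and haematopoietic progenitor genes had 0 genes called at that p and medians of -0.063 to 0.068.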
